A study of Homo sapiens with 6 samples.

Results

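Serum response factor (SRF) and genes of the actin cytoskeleton that it is known to drive were followed in rhabdomyosarcoma cells treated with YK-4-279. They were 10 genes, SRF, ACTB, FLNA, VCL, ZYX, FHL2, CNN1, CNN2, TAGLN and MYL9. All were chosen by name, with earlier results of these data known, and matched by symbol in a table of normalized counts for 35268 named genes. All 10 were in the table, and all 10 were among the 13930 genes with a mean normalized count of at least 10 over the 6 libraries, which were the genes tested.

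SRF binds DNA as a dimer at a short A/T-rich element called the CArG box. Monomeric actin holds the cofactors MRTFA and MRTFB in the cytoplasm, and when actin assembles into filaments the cofactors enter the nucleus and switch on SRF targets that encode actin and its partners. A separate group of cofactors, the ternary complex factors of the ETS family, joins SRF at immediate early genes such as EGR1 and FOS, and in muscle lineages SRF also acts at contractile genes.

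The study profiled mRNA of Rh30 cells, a patient-derived line of fusion-positive rhabdomyosarcoma (FP-RMS) that carries PAX3-FOXO1. Cells received 1 µM YK-4-279 or its vehicle DMSO, a comparison that asks which transcripts change with the drug. YK-4-279 is a small molecule described as blocking EWS-FLI1 from binding RNA helicase A and as active on other ETS factors. RNA was taken at 24 h, with 3 libraries per group. Both groups were the same line with no engineered allele, so the model was 1 cell line at 1 dose and 1 time point. The labels number the replicates but do not say whether they were separate cultures, so the p-values measure only the spread between these 6 samples. In bulk RNA, a change in the share of cells that express a gene and a change in RNA per cell cannot be told apart.

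The reads assigned to named genes in order of replicate numbered 16724650, 20771226 and 24677433 for DMSO. For YK-4-279 they numbered 23230675, 18752655 and 19876724. DMSO replicate 1 was the shallowest library, and it also stood apart from the others. Its mean correlation with the other libraries was 0.989, and each of the others had 0.992 or more. Among genes with at least 50 reads in a pair of libraries, the chi-square per degree of freedom was 17.8 between DMSO replicates 1 and 2 and 15.3 between DMSO replicates 1 and 3, against 2.27 between DMSO replicates 2 and 3 and 2.33 to 2.95 within the YK-4-279 group. The 13 mitochondrial genes took 6.05% of reads in DMSO replicate 1 and 4.74% to 5.03% in the other libraries. DMSO replicate 1 was the lowest of the 6 libraries for 7 of the 10 genes, against 28.8% of genes tested, and the highest for 0 of the 10, against 33.7%. Fold changes of the 10 genes, differences of ratios, and calls and medians of the lists of SRF cofactors and targets are therefore given with and without it.

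The rhabdomyosarcoma markers were abundant in every library. MYOD1, a myogenic transcription factor and the most abundant of the 7 markers, lay between 34516 and 39146 normalized counts. The 7 markers summed to 64037, 72839 and 70210.4 in DMSO and 72109, 72683 and 69303 in YK-4-279, and 0 of the 7 passed the limma test described next, 3 having an unadjusted p under 0.05, as 18.7% of genes tested did. In edgeR and DESeq2 0 passed, with 3 under 0.05 unadjusted in each (18.4% and 15.2% of genes tested). Without DMSO replicate 1, 1 of the 7 passed in limma, where 13.1% of genes tested did. It was FOXO1, which was lower (log2 fold change -0.14, adjusted p 0.0471, against -0.25 and 0.128 with all libraries, and a range of 0.00905 to 0.345 over alternatives). Rh30 carries PAX3-FOXO1, and how reads of the fusion were counted is not stated. The FOXO1 value therefore cannot be read as that of the unfused gene alone. With all libraries the log2 fold change was above 0 for 4 of the 7 markers and below 0 for 3. Their median was 0.068, and 0.082 without DMSO replicate 1. Markers of other cell types were present in part. Of the 6 smooth muscle markers 3 were tested, with means from 49.3 to 1602 normalized counts (SMTN highest), while LMOD1, MYOCD and ACTG2 had means under 10. Of the 4 epithelial markers 3 were tested, with means from 32.9 to 64.6 (EPCAM highest), while CDH1 was listed at 0 in 5 of the 6 libraries. All 3 leukocyte markers had means under 10, and PTPRC was listed at 0 in 5 of the 6 libraries.

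Groups were compared with limma on log2(normalized count + 1), with p-values adjusted by Benjamini-Hochberg over the 13930 genes and a threshold of 0.05. The log2 fold changes are YK-4-279 minus DMSO on that scale, which understates changes in genes of low count. With 3 libraries against 3, a two-sided exact permutation test of a single gene cannot go below 0.10, so calls rest on the model fitted across genes. In limma 475 genes passed (3.41%), of which 176 were higher (1.26%) and 299 lower (2.15%) with YK-4-279. Of the 10 SRF and cytoskeleton genes 0 passed. Of them 4 had an unadjusted p under 0.05 in limma, where 18.7% of genes tested did, while edgeR called 0 of the 10 (3.34% of genes tested, with 3 of the 10 and 18.4% of genes tested under 0.05 unadjusted) and DESeq2 called 1 (4.85% of the 12849 genes to which it gave an adjusted p, with 3 of the 10 and 15.2% of genes tested under 0.05 unadjusted). The 3 YK-4-279 libraries were all above the 3 DMSO libraries for 3 of the 10, against 10.9% of genes tested, and all below for 1, against 15.1%. These counts depend on the scaling. With libraries scaled to their depth, a choice added after the data were seen, the counts were 6 above, against 17.4% of genes tested, and 0 below, against 9.09%, VCL, CNN1 and FHL2 being the added genes and ACTB overlapping. The log2 fold change was above 0 for 8 and below 0 for 2, with a median of 0.16 beside a median of -0.0075 over all genes tested, of which 6684 were above 0 and 7246 below.

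Without DMSO replicate 1, limma called 1823 genes (13.1%), of which 644 were higher (4.62%) and 1179 lower (8.46%). SRF, ZYX and FLNA passed in that fit, all 3 higher with YK-4-279, and the median log2 fold change of the 10 was 0.080 beside -0.012 over all genes tested. More genes passed without that library while the median fold change of the 10 was smaller. Without DMSO replicate 2, SRF and FLNA passed and 4.85% of genes tested were called. Without DMSO replicate 3, 0 of the 10 passed in limma, where 242 genes (1.74%) did. Leaving out YK-4-279 replicate 1, 2 or 3 gave 0 of the 10 as well, but limma called only 19, 23 and 46 genes in those fits (0.136%, 0.165% and 0.33%), of which 15, 16 and 28 were higher. With so few genes called, a call lost in those fits says little of the gene.

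**Figure D1:**
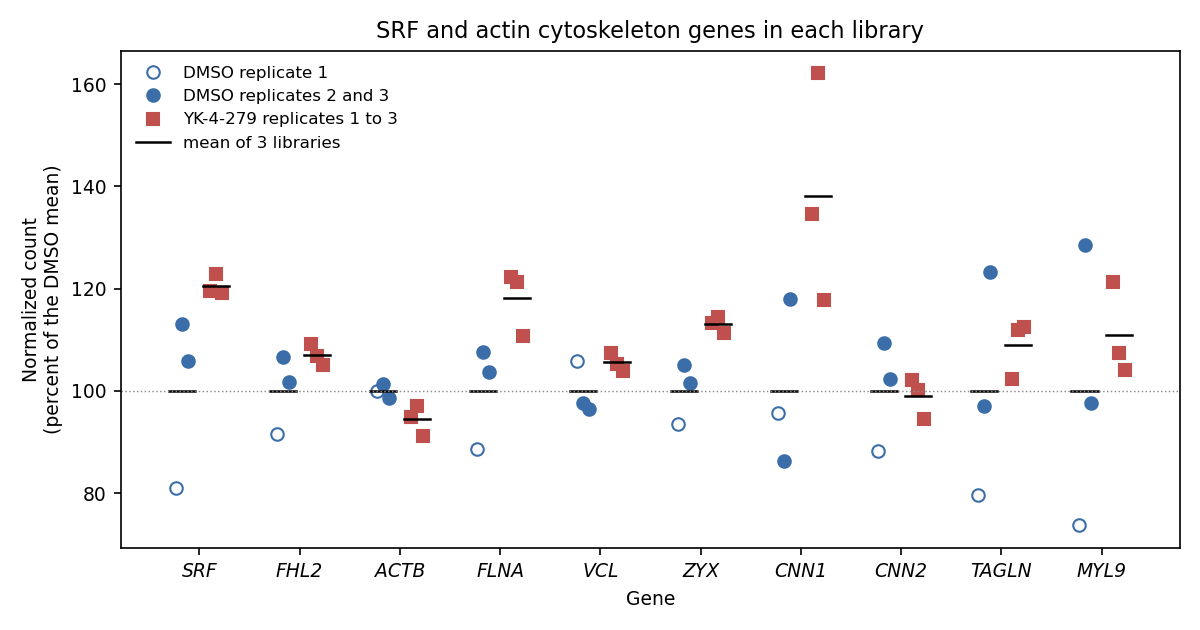
Normalized count of each of the 10 genes in each of the 6 libraries, as percent of the gene's DMSO mean, with circles for DMSO (open for replicate 1), squares for YK-4-279 and lines at group means. SRF, ZYX and FLNA lie higher in all 3 YK-4-279 libraries and ACTB lies lower, and DMSO replicate 1 is the lowest point for 7 of the 10 genes.

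The start regions of these genes are shown because the CArG box is the element that SRF binds. Of the 10 genes, 7 had an entry among RefSeq promoters on GRCh38.p14, and the entry was searched over the 250 bases before its start on both strands. The start of an entry can differ from the gene start printed here. The only VCL window lies wholly inside the gene, past its printed start, and those of ZYX and CNN1 reach 50 and 84 bases into the gene, so the sequence before the printed start of VCL was not searched. ACTB, MYL9 and TAGLN had no entry and were not searched. A CArG box was found in 4 of the 7 genes searched, SRF, FLNA, CNN2 and FHL2, and in none of the windows of VCL, ZYX and CNN1. Of all 27305 genes with an entry, 394 held one (1.4%). Of 33 other cytoskeletal genes known as SRF targets with an entry, 7 held one (21.2%). The ETS core CCGGAAGT was found in 0 of the 7 genes searched here and in 4.13% of all genes with an entry. Counting back from the start, the first base of the box lay at -30 and -10 in SRF, -94 in FLNA, -89 in CNN2 and -101 in the FHL2 start shown. The sequences run 5′ to 3′ on the strand of the gene and mark CArG boxes in capitals. They end just before the start, except that of CNN2, which ends at -23. They are chr6:43171119-43171268 on the plus strand for SRF, chrX:154374635-154374784 on the minus strand for FLNA, chr19:1026458-1026585 on the plus strand for CNN2 and chr2:105438514-105438663 on the minus strand for FHL2.
SRF: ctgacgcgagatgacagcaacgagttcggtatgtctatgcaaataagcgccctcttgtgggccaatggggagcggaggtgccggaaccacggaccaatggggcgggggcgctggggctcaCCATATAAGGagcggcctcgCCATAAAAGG
FLNA: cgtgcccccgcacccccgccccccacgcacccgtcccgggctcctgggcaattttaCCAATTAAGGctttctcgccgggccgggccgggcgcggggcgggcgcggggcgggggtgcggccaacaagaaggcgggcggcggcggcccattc
CNN2: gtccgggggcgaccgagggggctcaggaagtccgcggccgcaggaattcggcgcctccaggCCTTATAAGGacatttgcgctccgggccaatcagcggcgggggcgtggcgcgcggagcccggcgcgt
FHL2: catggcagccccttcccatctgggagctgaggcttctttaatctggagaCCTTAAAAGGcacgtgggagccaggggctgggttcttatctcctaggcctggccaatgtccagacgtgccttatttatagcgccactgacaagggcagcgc
A match of these letters is a description of the sequence and not a measured binding site. SRF and FLNA, with a box, and ZYX, without one in this window, were the 3 genes that passed without DMSO replicate 1, while CNN2 and FHL2, both with a box, did not pass.

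SRF (chr6:43171269-43181506, plus strand) encodes the transcription factor itself, and its own promoter carries CArG boxes. It had 1475, 2059 and 1927 normalized counts in DMSO and 2175, 2236 and 2170.1 in YK-4-279, or 1821 ± 306 against 2194 ± 37.0 (SD, n = 3). The YK-4-279 libraries were close together and all above the DMSO libraries, of which replicate 1 was far the lowest. The log2 fold change was 0.28 (SE 0.099, 95% confidence interval 0.071 to 0.50), with an unadjusted p of 0.0126 and an adjusted p of 0.139 in limma. Without DMSO replicate 1 it was 0.14 (0.046 to 0.23), with an adjusted p of 0.0370 in limma, and over all alternatives the adjusted p ran from 0.0177 to 0.378. SRF was also called without DMSO replicate 2 (0.38, adjusted p 0.0283 in limma).

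ACTB (chr7:5526409-5563902, minus strand) encodes cytoplasmic beta actin, the building block of the filaments. It had 46345, 46984 and 45725 normalized counts in DMSO and 44023, 45003 and 42274 in YK-4-279. All 3 YK-4-279 libraries were below all DMSO libraries, and DMSO replicate 1 lay between the other DMSO libraries here. For ACTB the log2 fold change was -0.083 (SE 0.054, interval -0.20 to 0.033), with an adjusted p of 0.432 in limma, 0.524 in edgeR and 0.605 in DESeq2. It was -0.083 without DMSO replicate 1 too, with an adjusted p of 0.233 in limma, and the range over alternatives was 0.0356 to 0.742.

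FLNA (chrX:154348524-154374634, minus strand) encodes filamin A, which crosslinks actin filaments and ties them to the membrane. It had 11648, 14130.4 and 13633 normalized counts in DMSO and 16062, 15929 and 14559 in YK-4-279, or 13137 ± 1313 against 15517 ± 832. The groups did not overlap, with YK-4-279 replicate 3 nearest to DMSO and DMSO replicate 1 lowest. For FLNA the log2 fold change was 0.24 (SE 0.073, interval 0.087 to 0.40), with an unadjusted p of 0.00495 and an adjusted p of 0.0859 in limma, 0.0720 in edgeR and 0.0320 in DESeq2. Without DMSO replicate 1 it was 0.16 (0.075 to 0.24) with an adjusted p of 0.00582 in limma, and without DMSO replicate 2 it was 0.30 with an adjusted p of 0.0352. Quantile normalization called FLNA as well (0.31, adjusted p 0.0303). Over alternatives the adjusted p of FLNA ran from 0.00582 to 0.354.

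ZYX (chr7:143381295-143391111, plus strand) encodes zyxin, a LIM protein of focal adhesions and stress fibers. It had 2456, 2759.9 and 2669 normalized counts in DMSO and 2977, 3008 and 2928 in YK-4-279. All YK-4-279 libraries were higher, and they were closer to each other than the DMSO libraries were. For ZYX the log2 fold change was 0.18 (SE 0.061, interval 0.046 to 0.31), with an adjusted p of 0.134 in limma, 0.103 in edgeR and 0.0956 in DESeq2. Leaving out DMSO replicate 1 gave 0.13 (0.044 to 0.22) with an adjusted p of 0.0349 in limma, the lowest of the alternatives, which reached up to 0.399.

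VCL (chr10:73995193-74121363, plus strand) encodes vinculin, which links adhesion complexes to actin. It had 2684, 2478 and 2449 normalized counts in DMSO and 2725, 2673 and 2637 in YK-4-279. The groups overlapped, because DMSO replicate 1 was the highest DMSO library and lay above YK-4-279 replicates 2 and 3. Its log2 fold change was 0.079 (SE 0.060, interval -0.050 to 0.21, adjusted p 0.510 in limma), and without DMSO replicate 1 it was 0.12 (0.032 to 0.21, adjusted p 0.0588 in limma). That was the lowest adjusted p of VCL over the alternatives, and the highest was 0.760. VCL shares 1109 bases with AP3M1 on the opposite strand, which had a mean of 1284 normalized counts, and whether reads were counted by strand is not stated.

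FHL2 (chr2:105357712-105438513, minus strand) encodes a LIM-only protein that binds SRF and other factors. It had 407, 474 and 453 normalized counts in DMSO and 485, 475 and 467 in YK-4-279. The top DMSO library lay among the YK-4-279 libraries, so the groups overlapped. FHL2 had a log2 fold change of 0.10 (SE 0.086, interval -0.084 to 0.28), with an adjusted p of 0.565 in limma, and 0.039 without DMSO replicate 1 (adjusted p 0.810, the highest over alternatives, which began at 0.393).

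The calponins bind actin and restrain myosin, CNN1 in smooth muscle and CNN2 in many cell types. CNN2 (chr19:1026586-1039068, plus strand) had 2829, 3508 and 3282 normalized counts in DMSO and 3274, 3215 and 3033 in YK-4-279. The groups overlapped, and the YK-4-279 values lay inside the DMSO range. Its log2 fold change was -0.0098 (SE 0.076, interval -0.17 to 0.15, adjusted p 0.965 in limma), and without DMSO replicate 1 it was -0.097 (-0.19 to -0.0085, adjusted p 0.147). Its direction differed among alternatives, over which the adjusted p ran from 0.115 to 0.997.

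CNN1 (chr19:11538767-11550323, plus strand) had 36.6, 33.0 and 45.1 normalized counts in DMSO and 51.4, 61.9 and 45.0 in YK-4-279. The YK-4-279 libraries were the higher ones, and the groups overlapped only through YK-4-279 replicate 3 and DMSO replicate 3, which had nearly the same value. The log2 fold change, the largest of the 10, was 0.46 (SE 0.21, interval 0.0033 to 0.91), with an unadjusted p of 0.0486 and an adjusted p of 0.266 in limma, and 0.43 without DMSO replicate 1 (-0.041 to 0.90, adjusted p 0.247). The adjusted p of CNN1 ran from 0.231 to 0.564 over alternatives.

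TAGLN encodes transgelin, an actin-binding protein of smooth muscle, and MYL9 encodes the regulatory light chain of smooth muscle and nonmuscle myosin. TAGLN (chr11:117199370-117207464, plus strand) had 68.1, 82.9 and 105 normalized counts in DMSO and 87.4, 95.6 and 96.0 in YK-4-279. The YK-4-279 libraries lay inside the DMSO range. MYL9 (chr20:36541497-36551447, plus strand) had 56.7, 98.9 and 75.1 in DMSO and 93.4, 82.6 and 80.0 in YK-4-279, again inside the DMSO range. The log2 fold changes were 0.14 (interval -0.23 to 0.51, adjusted p 0.691) for TAGLN and 0.18 (-0.24 to 0.60, adjusted p 0.657) for MYL9 in limma, and without DMSO replicate 1 they were -0.0073 and -0.018. Over alternatives the adjusted p ran from 0.408 to 0.985 for TAGLN and from 0.266 to 0.966 for MYL9. Both intervals included 0. TAGLN shares 3128 bases with PCSK7 on the opposite strand, which had a mean of 426 normalized counts, and MYL9 is overlapped over its whole length of 9951 bases by DLGAP4-AS1 on the opposite strand, which had a mean of 11.3.

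**Figure D2:**
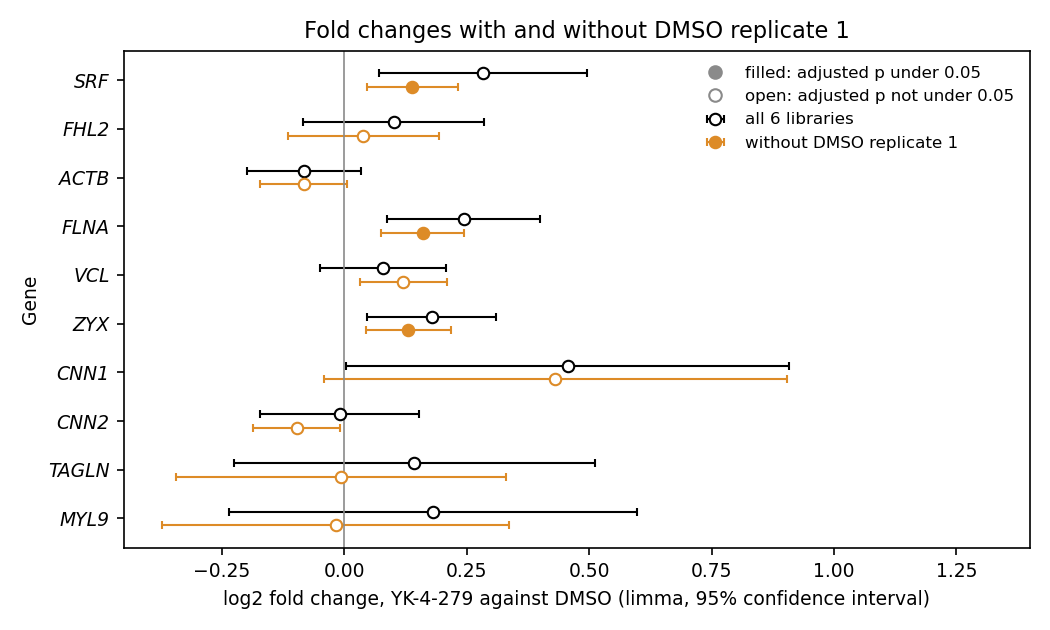
Log2 fold change (YK-4-279 minus DMSO) of each of the 10 genes with its 95% confidence interval from limma, with all 6 libraries (black) and without DMSO replicate 1 (orange), filled where the adjusted p was under 0.05. Without that library SRF goes from 0.28 to 0.14 and FLNA from 0.24 to 0.16 with narrower intervals, and ACTB is at -0.083 in both fits.

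Levels were compared between genes as reads per kilobase of the canonical transcript, scaled to the depth of the library (RPKM). In DMSO, ACTB stood at 1229 ± 18.6, FLNA at 74.2 ± 8.15 and CNN2 at 71.7 ± 8.37, and the latter pair differed by less than the spread between libraries, although FLNA was the higher in each (64.9 against 62.4, 80.0 against 78.7 and 77.8 against 74.1). ZYX followed at 56.7 ± 3.91. VCL at 22.2 ± 0.860 and SRF at 20.7 ± 3.67 differed by less than their spread too, and their order turned between libraries (23.2 against 16.5 in DMSO replicate 1, but 21.7 against 23.5 and 21.6 against 22.1 in replicates 2 and 3). FHL2 was at 13.5 ± 1.16. MYL9, CNN1 and TAGLN were lowest at 1.33 ± 0.373, 1.23 ± 0.209 and 1.09 ± 0.249, and differed by less than their spread, although CNN1 was above TAGLN in each DMSO library. The lengths used for TAGLN (3786 bases) and MYL9 (2786 bases) are those of long transcripts, so levels per length for these genes are low where shorter transcripts are present. Among the 10, the genes known from differentiated smooth muscle were thus at the bottom of the order and ACTB was at the top. The 10 genes took 0.322%, 0.350% and 0.342% of all reads in DMSO and 0.361%, 0.357% and 0.343% in YK-4-279.

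The GC content of the 10 genes ran from 49.3% to 63.7% with a median of 59.2%, and all 10 were above the median of 48.5% over the 13705 genes tested that had a value. In another fit, the trend of each library's deviation from the gene mean with GC content and length was removed, library by library. That step also takes out differences between replicates of a group that go with GC content and length. In limma 14.4% of those genes then passed, and 3 of the 10 did. SRF and FLNA were higher at log2 fold changes of 0.20 and 0.14, and ACTB was lower at -0.16 (adjusted p 0.0177, 0.0244 and 0.0356). The fold changes above 0 all became smaller, that of ZYX going from 0.18 to 0.082 (adjusted p 0.270 in limma) and that of FHL2 from 0.10 to 0.036, while CNN2 went from -0.0098 to -0.10 and the median of the 10 from 0.16 to 0.080. The part of base composition in the fold changes was not tested beyond that fit.

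Each gene with a close relative was compared with it inside each library, as the log2 ratio of their normalized counts. Of the 8 pairs computed, over which p-values were adjusted, 7 are given, and the other was left out for a reason unrelated to its values. ACTB was set against ACTG1, which encodes gamma actin and had 60629, 59240.4 and 57227 normalized counts in DMSO and 60450.1, 64299 and 59896 in YK-4-279. The ratio was -0.39, -0.33 and -0.32 in DMSO and -0.46, -0.51 and -0.50 in YK-4-279, so every YK-4-279 library had less ACTB per ACTG1 than any DMSO library. The difference was -0.14, with a two-sided exact permutation p of 0.10, the smallest that 3 against 3 allows, and 0.267 after adjustment over the 8 pairs. The coding sequences of ACTB and ACTG1 are nearly alike, and how reads that fit both were counted is not stated.

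CNN1 against CNN2 and VCL against CTNNA1, which encodes the vinculin relative alpha-catenin, were the other pairs without overlap. The CNN1 to CNN2 ratio was -6.24, -6.69 and -6.15 in DMSO and -5.97, -5.68 and -6.04 in YK-4-279, a difference of 0.47. The VCL to CTNNA1 ratio was -1.33, -1.29 and -1.29 in DMSO and -1.14, -1.24 and -1.15 in YK-4-279, a difference of 0.13. Both were higher in every YK-4-279 library, with an exact permutation p of 0.10 and an adjusted value of 0.267 each. The ratios of TAGLN to TAGLN2, MYL9 to MYL12A, ZYX to LPP and FHL2 to FHL3 overlapped between groups, with differences of 0.20, 0.091, 0.20 and 0.047 and adjusted exact permutation values from 0.80 to 0.90. LPP had a mean under 10 normalized counts and was not tested by itself. Without DMSO replicate 1 the differences were -0.16 for ACTB to ACTG1, 0.53 for CNN1 to CNN2 and 0.11 for VCL to CTNNA1, with exact permutation p-values of 0.10, 0.10 and 0.20. Those of TAGLN to TAGLN2 and FHL2 to FHL3 were 0.066 and 0.035, and those of MYL9 to MYL12A and ZYX to LPP changed sign, to -0.094 and -0.24.

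**Figure D3:**
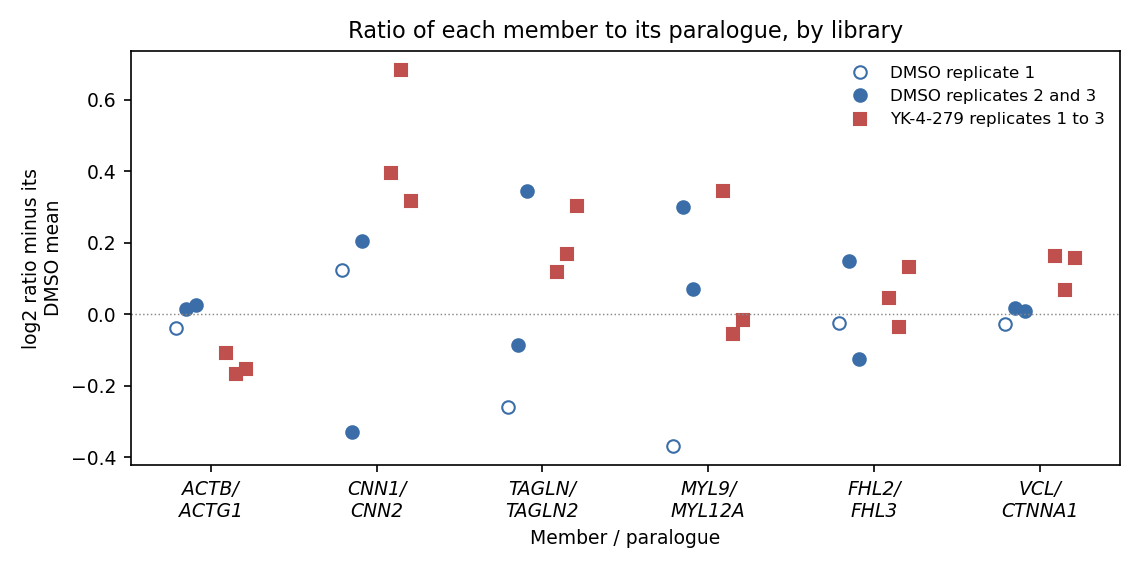
Difference from the DMSO mean of the log2 ratio of each gene to its relative, with 1 point per library, circles for DMSO (open for replicate 1) and squares for YK-4-279, ZYX to LPP left out for the low count of LPP. The ACTB to ACTG1 ratio is lower in all 3 YK-4-279 libraries by -0.14 on average, and the CNN1 to CNN2 and VCL to CTNNA1 ratios are higher by 0.47 and 0.13.

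The proteins that SRF works with were taken as a list of 12 cofactors, of which 11 were tested. By limma 2 passed, both lower with YK-4-279, beside 1.26% of genes tested higher and 2.15% lower, and the list's median was -0.028, which ran from -0.066 to 0.016 over alternatives and was above 0 without DMSO replicate 2 (0.016) and with quantile normalization (0.014). FHL1, which encodes a LIM-only protein of muscle, had 1782, 1659 and 1631 normalized counts in DMSO and 1359.9, 1364 and 1285 in YK-4-279, a log2 fold change of -0.34 (SE 0.065) with an adjusted p of 0.0136 in limma, ranging from 1.8e-05 to 0.115 over alternatives. ELK3, a ternary complex factor of the ETS family, had 1922, 1672 and 1611 in DMSO and 1383, 1409 and 1456 in YK-4-279, a log2 fold change of -0.29 (SE 0.073) with an adjusted p of 0.0487 in limma and a range of 0.00147 to 0.259. Neither gene overlapped between groups. Without DMSO replicate 1 their log2 fold changes were -0.30 and -0.21, and both passed. When YK-4-279 replicate 1, 2 or 3 was left out, FHL1 was at -0.35, -0.35 and -0.31 and no longer passed (adjusted p 0.108, 0.0928 and 0.115 in limma), in fits that called 0.136%, 0.165% and 0.33% of genes. ELK3 was at -0.27, -0.29 and -0.31 in those fits (0.259, 0.200 and 0.158), and at -0.34 without DMSO replicate 3 (0.0567). The ELK3 call was also lost in edgeR (adjusted p 0.0545), and in limma with TMM (0.0608), quantile normalization (0.107), the replicate block (0.105) and eBayes without trend (0.191), the last of which lost that of FHL1 too (0.109). CSRP1, the most abundant of the list and a LIM protein that bridges SRF and GATA factors, had a log2 fold change of 0.12 and did not pass (adjusted p 0.415 in limma, 0.142 to 0.710 over alternatives). Leaving out DMSO replicate 1, 1 cofactor was higher and 3 were lower, beside 4.62% and 8.46% of genes tested, and the median was -0.036. MRTFA and MRTFB, named here after their values were seen because they are the actin-sensing cofactors, had log2 fold changes of 0.028 (interval -0.13 to 0.18) and -0.070 (interval -0.24 to 0.095). MYOCD, the smooth muscle cofactor, was not tested for its low count.

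Another 34 cytoskeletal genes known as SRF targets served as the nearest comparison, and 32 were tested, since ACTA2 and LPP had means under 10. By limma 1 passed, and it was higher, where 3.41% of genes tested passed. The median over the list was 0.044, beside 0.16 for the 10 genes, and ran from -0.021 to 0.077 over alternatives, below 0 only in the fit that took out the trend with GC content and length. LIMA1, which encodes an actin-bundling LIM protein, had 2009.9, 2014 and 2027 normalized counts in DMSO and 2356, 2545 and 2359 in YK-4-279. All 3 YK-4-279 libraries were above the tightly grouped DMSO libraries. LIMA1 had a log2 fold change of 0.26 (SE 0.060), with an adjusted p of 0.0311 in limma that ranged from 4.6e-05 to 0.195 over alternatives. It was 0.26 without DMSO replicate 1 as well, where it passed. Without DMSO replicate 3 it was 0.27 and did not pass (adjusted p 0.0934 in limma), nor did it without YK-4-279 replicate 1, 2 or 3, at 0.28, 0.22 and 0.28 (0.149, 0.195 and 0.129), in fits that called 0.33% of genes or fewer. The replicate block and eBayes without trend also lost the LIMA1 call in limma (adjusted p 0.0941 and 0.138), at the same fold change. ACTG1, the most abundant, had a log2 fold change of 0.060 (interval -0.062 to 0.18). In the fit without DMSO replicate 1, 4 of the list were higher and 2 were lower, where 13.1% of genes tested passed (4.62% higher and 8.46% lower), and the median was 0.0055.

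The immediate early targets of SRF were a list chosen, like the others, with earlier results of these data known. Its counts are therefore a description and not a test of the list. The list held 14 genes, of which 12 were tested. By limma 9 passed, all of them higher, beside 1.26% of genes tested higher and 2.15% lower, and their list's median was 0.53, which ran from 0.44 to 0.65 over alternatives. In the fit without DMSO replicate 1, 11 passed, all higher, beside 4.62% of genes tested higher, and the median was 0.46. Fewer of the list passed without DMSO replicate 3 (5, beside 1.74% of genes tested). Without YK-4-279 replicate 1, 2 or 3 the counts were 1, 1 and 2, beside 0.136%, 0.165% and 0.33% of genes tested. Quantile normalization called 4 of the list, the replicate block 5 and eBayes without trend 2. Those fits called 277, 180 and 33 of the 13930 genes tested. A CArG box was found in 2 of the 10 genes of the list with a promoter entry, EGR1 and EGR2. That of EGR2 was at a start inside the gene, and the windows of FOS and FOSB held none. These windows were of the same length as those of SRF and FLNA. Sequence further upstream was not searched, so a box of FOS or FOSB there would have been missed. EGR1, a zinc finger transcription factor, is shown with its start region because its promoter holds 2 CArG boxes, at -105 and -83, in capitals on the RefSeq sequence chr5:138465329-138465478 (plus strand, GRCh38.p14, 5′ to 3′).
EGR1: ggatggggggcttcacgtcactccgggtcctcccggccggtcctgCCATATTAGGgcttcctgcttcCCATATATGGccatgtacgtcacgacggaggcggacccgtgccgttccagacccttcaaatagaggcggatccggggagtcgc
EGR1 had 257, 291 and 291 normalized counts in DMSO and 572, 581 and 641 in YK-4-279. The groups were far apart, and DMSO replicate 1 was the lowest. EGR1 had a log2 fold change of 1.10 (SE 0.091), with an adjusted p of 0.000108 in limma, ranging from 6.5e-20 to 0.0213 over alternatives, and was at 1.04 without DMSO replicate 1. SRF, which also holds a pair of boxes in its window, had a log2 fold change of 0.28.

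FOSB and FOS, which encode subunits of the AP-1 transcription factor, gave lower counts. FOSB had 42.9, 32.0 and 19.2 normalized counts in DMSO and 58.3, 73.9 and 61.0 in YK-4-279, with a log2 fold change of 1.08 (SE 0.26) and an adjusted p of 0.0413 in limma, ranging from 6.9e-05 to 0.201 over alternatives. FOS had 47.9, 33.0 and 46.8 in DMSO and 97.7, 73.9 and 98.0 in YK-4-279, with a log2 fold change of 1.07 (SE 0.20) and an adjusted p of 0.0122 in limma, ranging from 3.8e-05 to 0.117. Neither overlapped between groups. FOSB was at 1.33 and FOS at 1.16 without DMSO replicate 1, and both passed. Without YK-4-279 replicate 1, 2 or 3, in fits that called 0.33% of genes or fewer, neither passed in limma. FOSB was then at 1.15, 0.98 and 1.11 (adjusted p 0.165, 0.201 and 0.144) and FOS at 1.00 without replicate 1 or 3 and higher without replicate 2 (0.117, 0.0928 and 0.0640). FOSB was at 0.77 without DMSO replicate 3 (0.104), whereas EGR1 passed whichever library was left out. FOSB also did not pass in limma with no filter (adjusted p 0.0573), quantile normalization (0.111), the replicate block (0.0542) or eBayes without trend (0.164), and FOS did not with the last of these (0.0947), whereas EGR1 passed in every alternative. MCL1, an antiapoptotic gene and the most abundant of the list, had a log2 fold change of 0.033 (interval -0.081 to 0.15) and did not pass. EGR3 and EGR4 were not tested for their low counts, and EGR4 was listed at 0 in every library.

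**Figure D4:**
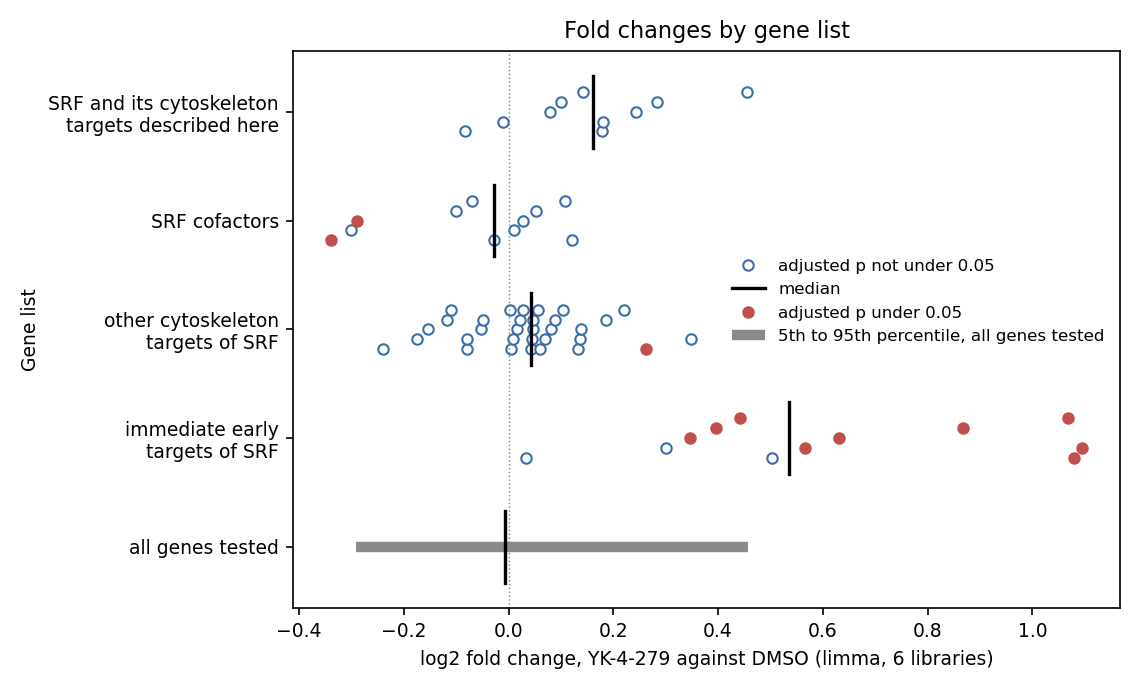
Log2 fold change (YK-4-279 minus DMSO) of every tested gene of the 10 SRF and cytoskeleton genes and of the lists of cofactors, other cytoskeletal targets and immediate early targets, with 1 point per gene, filled where the adjusted p was under 0.05, a line at each median and a gray bar from the 5th to the 95th percentile of all genes tested. The medians are 0.16, -0.028, 0.044 and 0.53.

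Summed over the list, normalized counts of the 10 genes were 68007, 72608 and 70363 in DMSO and 71953, 72779.6 and 68290.5 in YK-4-279, and the groups overlapped. ACTB made up most of that sum. The fibroblast markers summed to 985, 1144 and 1050.4 in DMSO and 1211, 1249.7 and 1205 in YK-4-279, higher in every YK-4-279 library. That order rested on COL1A1, since the other 5 summed to 406, 453 and 412 in DMSO and 395, 426 and 430.2 in YK-4-279 and overlapped. Of the 6 fibroblast markers 4 were tested and 1 passed in limma, where 3.41% of genes tested did, COL1A1 (log2 fold change 0.34, adjusted p 0.0375, ranging from 0.00161 to 0.213), while DCN and COL1A2 had means under 10. COL1A1 was also the only 1 of the 4 to pass without DMSO replicate 1 (0.28), beside 13.1% of genes tested. The smooth muscle markers summed to 2589, 2614 and 2504 in DMSO and 2675, 2599 and 2580.3 in YK-4-279 and overlapped. Of the 3 smooth muscle markers tested 0 passed in limma, edgeR or DESeq2, with 0 under 0.05 unadjusted in each, and without DMSO replicate 1, 1 passed in limma, where 13.1% of genes tested did (4.62% higher). It was SYNPO2, which was higher (0.19, adjusted p 0.0254, the lowest of a range up to 0.686). In that fit the median of the 3 smooth muscle markers was below 0 (-0.050), against 0.068 with all libraries. The epithelial, endothelial and leukocyte markers summed to at most 177, 48.0 and 8.69 in any library. The part of these cell types in the fold changes of the 10 genes was not tested.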

How the data were processed

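The authors extracted RNA with TRIzol, sequenced directional mRNA libraries with paired reads, checked reads with FastQC 0.11.8 and MultiQC 1.8, trimmed them with BBDuk, aligned them to hg38 with STAR 2.7.9a and used DESeq2 1.44.0. The deposited table holds signal: counts per gene divided by a size factor of each library. Whole reads were recovered from it for 100% of values within 1e-06, and 1 unnamed entry was left out. Annotation version and strand setting are not stated. The members and lists were chosen with earlier results of these data known. Groups were compared with limma 3.58.1 (lmFit, eBayes with trend) in R 4.3.3 on log2(value + 1), for genes with a mean of at least 10, with Benjamini-Hochberg adjustment over all genes tested. Alternatives were edgeR 4.0.16, DESeq2 1.42.0, pseudocounts of 10 and 0.5, no filter, a mean of at least 100, TMM and quantile normalization, eBayes without trend, a replicate block, each library left out, a removed GC content and length trend, and, added after seeing the data, scaling to library depth for the overlap of groups. Named genes were all 10 members, both genes of each related pair given, and in each list the most abundant gene and up to 3 with the largest fold change among those that passed, or all where 5 or fewer passed. Fold changes were also given for MRTFA, MRTFB, FOXO1 and SYNPO2, which fall outside that rule. FOXO1 and SYNPO2 passed without DMSO replicate 1, as did genes of other lists that are not named. Library depth ranged from 16724650 to 24677433 reads. The fit was tested on simulated data, drawn independently for each gene and without a library that stands apart as DMSO replicate 1 did.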

Additional observations from a re-analysis of the deposited data

How the results depend on the processing

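Over the alternatives, genes called (475 in all) numbered 277 with quantile normalization, of which 132 were higher, 33 with eBayes without trend, of which 30 were higher, 180 with the replicate block, 1968 with the GC and length trend removed and 19 to 1823 with 1 library left out, of which 15 of 19, 16 of 23 and 28 of 46 were higher without YK-4-279 replicate 1, 2 or 3. Of the 10 SRF and cytoskeleton genes, called 0 of 10, quantile normalization called 1, the GC fit 3, DESeq2 1, the replicate block 0 and leaving out a library 0 to 3. Of the cofactors (2 called), TMM, quantile normalization, the replicate block and edgeR each called 1, eBayes without trend 0, a mean of at least 100, the GC fit and DESeq2 each 3, and leaving out a library 0 to 4. Of the other cytoskeletal targets (1 called), pseudocount 10, a mean of at least 100, quantile normalization and edgeR each called 2, DESeq2 3, the GC fit 6, eBayes without trend and the replicate block 0 and leaving out a library 0 to 6. Of the immediate early targets (9 called), the GC fit called 10, TMM 8, no filter 7, the filter at 100 called 6, quantile normalization 4, eBayes without trend 2, the replicate block 5 and leaving out a library 1 to 11. The log2 fold change of CNN2 reversed to 0.0088 with TMM, 0.045 with quantile normalization, 0.0019 with edgeR and ran from -0.097 to 0.058 with a library left out, while TAGLN ran from -0.0073 to 0.30 and MYL9 from -0.018 to 0.38. Left-out libraries moved the ratio differences of CNN1 to CNN2 from 0.30 to 0.57, TAGLN to TAGLN2 from 0.066 to 0.37, MYL9 to MYL12A from -0.094 to 0.24, ZYX to LPP from -0.24 to 0.58 and FHL2 to FHL3 from -0.015 to 0.12. Scaling to library depth, chosen after seeing the data, put all YK-4-279 libraries above all DMSO libraries for 6 of the 10 in place of 3 and below for 0 in place of 1. The median of the 10 stayed between 0.080 and 0.19.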
